A study of Mus musculus with 16 samples.

Results

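Cells keep triglyceride in lipid droplets, and 10 genes that coat these droplets or break down what they hold were followed in mouse hearts. They were the perilipin coats Plin2, Plin3, Plin4 and Plin5, the lipases Pnpla2, Lipe and Mgll, the lipase activator Abhd5 and the lipase inhibitors G0s2 and Hilpda. They were taken by symbol from the 24371 genes of the deposited count and FPKM tables (FPKM, counts scaled to gene length and library total). All 10 were found, and all 10 were among the 14607 genes that passed a filter on low counts. Bulk RNA was sequenced from 16 heart samples in 4 groups of 4, and all groups carried HFpEF (heart failure in which the ejection fraction is preserved), modelled by 12 weeks of high-fat diet plus L-NAME, which blocks nitric oxide synthase. Floxed hearts were Gpr91fl/fl, with both alleles of the succinate receptor gene flanked by loxP sites, and Cre hearts were Myh6Cre Gpr91fl/fl, with a Cre driven in cardiomyocytes, so that other cells of the heart keep the receptor gene. Each genotype was studied without succinate (untreated below) and with it (treated below). No group used here was free of the model, and none carried the Cre without the floxed alleles. Whether each sample is its own animal is not stated in the labels; p-values here measure only how samples of a group spread, which may be technical.

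In muscle and fat cells the breakdown of stored triglyceride runs in steps. Pnpla2 (adipose triglyceride lipase) removes the first fatty acid, Lipe (hormone-sensitive lipase) acts on the resulting diglyceride and Mgll on the monoglyceride. The protein of Abhd5 activates Pnpla2, whereas those of G0s2 and Hilpda bind and inhibit it. Perilipins control access of the lipases to the droplet: Plin5 is the coat of oxidative tissues such as heart and also tethers droplets to mitochondria, Plin2 and Plin3 are widespread, and Plin4 is found in fat, heart and skeletal muscle. Fatty acids released in this way feed mitochondrial oxidation and supply ligands to the nuclear receptor PPAR-alpha, which in turn is known to induce several of these genes.

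Total counts ranged from 27835235 to 34700996 per library. Sucnr1, the current symbol of Gpr91, had 0 to 21 counts per library, 20 in all over the 8 floxed libraries and 63 over the 8 Cre libraries. It was not lower in Cre hearts, and at this depth it gives no check of the deletion, so the genotypes are those of the labels. Cardiomyocyte markers marked every library: 12 of 12 were tested, and their summed level was 55929 to 74529 CPM (counts scaled to the library total). White adipocytes also express most of the 10 genes. In these libraries 9 of their markers summed to 0.0329 to 3.04 CPM, 0 of the 9 passed the filter, and the fat hormone gene Adipoq had 0 to 21 counts. The 5 brown adipocyte markers found summed to 49.0 to 67.4 CPM. Most of this was Cidea (34.8 to 48.4 CPM) and Prdm16 (10.5 to 19.9), with Dio2 at 0.431 to 4.85 CPM. Ucp1 and Elovl3 had 0 or 1 count.

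Plin5, Plin4 and Plin3 lie on chromosome 17 in the RefSeq annotation of the GRCm38.p6 build. Plin4 and Plin5 are next to each other on the same strand, and 7 coding genes lie between Plin5 and Plin3. The other 7 genes lie on 5 other chromosomes. The 250 bases before the annotated start are shown for Plin2, Plin5 and Pnpla2, which rose with succinate in floxed hearts, and G0s2, which fell. Plin3, Plin4 and Lipe also rose and are not shown. The sequences are from RefSeq (GRCm38.p6), whereas the submitters' processing notes name GRCm39. Capitals mark AGGTCA, the half-site bound by PPARs and related receptors, on either strand, and TATAA. Each is written 5′ to 3′ on the strand of the gene.
Plin2, chr4:86670060-86670309, minus strand: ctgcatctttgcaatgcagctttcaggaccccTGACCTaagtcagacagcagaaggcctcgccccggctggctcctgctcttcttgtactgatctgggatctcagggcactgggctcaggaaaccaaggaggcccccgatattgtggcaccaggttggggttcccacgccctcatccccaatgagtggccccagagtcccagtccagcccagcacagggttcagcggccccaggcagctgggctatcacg
Plin5, chr17:56117549-56117798, minus strand: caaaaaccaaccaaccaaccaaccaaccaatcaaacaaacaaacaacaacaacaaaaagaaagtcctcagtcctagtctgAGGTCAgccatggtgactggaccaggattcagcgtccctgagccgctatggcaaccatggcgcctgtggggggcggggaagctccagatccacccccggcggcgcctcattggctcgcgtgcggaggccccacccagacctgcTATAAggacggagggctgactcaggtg
Pnpla2, chr7:141454938-141455187, plus strand: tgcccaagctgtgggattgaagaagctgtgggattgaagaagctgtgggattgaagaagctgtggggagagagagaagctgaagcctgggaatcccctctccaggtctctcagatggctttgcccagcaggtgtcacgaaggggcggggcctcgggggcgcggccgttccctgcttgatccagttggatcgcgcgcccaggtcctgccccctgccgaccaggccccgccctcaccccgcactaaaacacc
G0s2, chr1:193273189-193273438, minus strand: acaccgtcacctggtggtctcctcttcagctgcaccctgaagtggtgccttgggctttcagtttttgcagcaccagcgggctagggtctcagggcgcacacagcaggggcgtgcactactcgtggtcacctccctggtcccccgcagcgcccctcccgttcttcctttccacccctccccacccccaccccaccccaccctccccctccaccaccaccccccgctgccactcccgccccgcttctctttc
AGGTCA was found in this window in Plin2, Plin5 and Abhd5 (3 of 10 genes), against 14.0% of 32851 windows of 250 bases over all promoters. The full DR1 element (2 such half-sites in a row with any 1 base between them) was in none of the 10 windows and in 0.0335% of all. TATAA was in the windows of Plin4, Plin5 and Hilpda, against 22.8% of all windows. Of the other motifs searched on both strands, CACGTG (and ACGTG, which it contains) was in Lipe and Mgll, against 6.02% (16.6% for ACGTG) of all windows, and GTAAACA in Mgll, against 3.17%. For genes with several annotated starts, the window of the one farthest upstream was used. These matches are letters in a window and not binding sites.

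Per length, Pnpla2 was the most abundant of the 10 genes, at a mean of 191 FPKM over the 16 libraries (the 98th percentile of tested genes). Plin3 and Plin5 followed at 76.8 and 75.8 FPKM, above Mgll (48.9 FPKM), Plin4 (37.8), G0s2 (27.2), Plin2 (26.5), Lipe (19.4) and Abhd5 (12.4). These are means over groups that differ, and the order changes with the group: G0s2 (42.1 FPKM) was above Plin4 (33.7) and Plin2 (17.6) in untreated floxed hearts, and in treated ones (18.8) it was below Plin2 (27.9) and Lipe (26.7). Hilpda was lowest at 3.57 FPKM, from 76 to 158 counts per library. Pnpla2 had the highest mean, Hilpda the lowest, and Plin2 the lowest of the 4 perilipins, in each of the 4 groups.

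**Figure D1:**
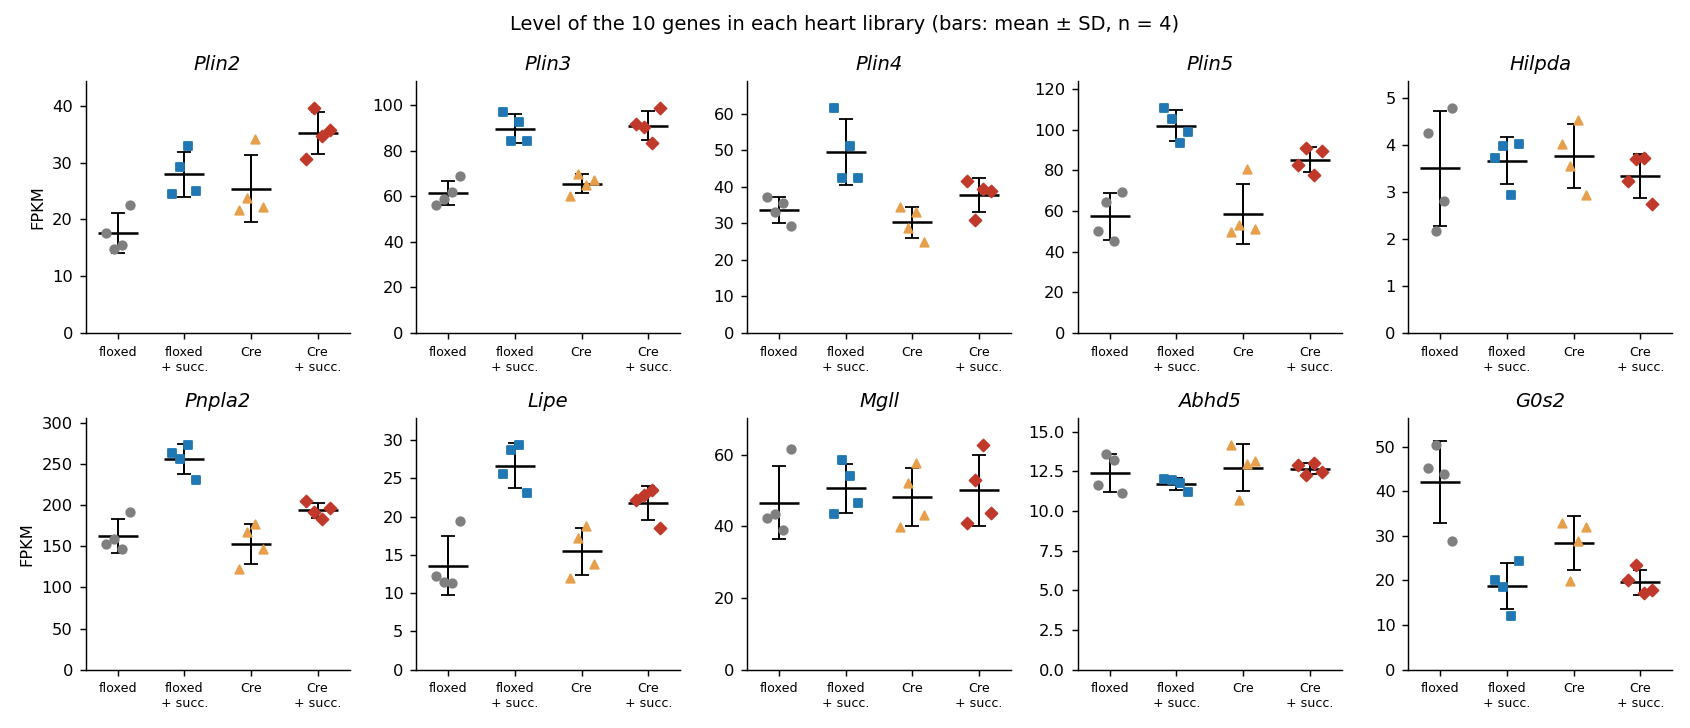
Level of each gene in FPKM (y axis, from 0) in the 16 libraries, by group (x axis); points are libraries, bars are means and whiskers the SD of 4 libraries. In floxed hearts treated with succinate, Plin2, Plin3, Plin4, Plin5, Pnpla2 and Lipe lie above every untreated floxed library and G0s2 below every one.

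In floxed hearts succinate was associated with more coat and lipase mRNA and less of 1 inhibitor. All 4 perilipin coats and 2 of the 3 lipases rose, by 1.51-fold to 2.02-fold, and the inhibitor G0s2 fell to 0.466 of its level. The activator Abhd5, the monoglyceride lipase Mgll and the inhibitor Hilpda did not pass the test. By edgeR's quasi-likelihood test, with p-values adjusted over all 14607 genes, 6 of 10 genes rose and 1 fell, against 13.1% of all tested genes called in either direction (7.48% higher and 5.64% lower). The median log2 fold change of the 10 was 0.60, and that of all tested genes was 0.0024. In 7 of 10 genes the 2 groups did not overlap in FPKM, against 17.5% of tested genes. The 10 genes were chosen with earlier results of these data known. Their shares beside those of all tested genes are therefore a description and not independent support. The same 7 genes passed when any 1 of these 8 libraries was left out.

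Plin5, the coat of oxidative muscle, was at 50.2, 64.5, 45.2 and 69.4 FPKM in untreated floxed hearts and at 111, 105, 93.4 and 98.8 in treated ones. Every treated heart was above every untreated one. It rose 1.84-fold (log2 0.88 ± 0.16, SE, n = 4 per group, edgeR adjusted p = 0.00259). Plin2, the widespread coat whose protein is stable only on droplets, went from 17.5, 14.8, 15.5 and 22.6 FPKM to 24.5, 29.2, 33.0 and 25.0. Untreated replicate 4 came closest to the treated hearts, and the groups did not overlap. Its rise was 1.63-fold (log2 0.71 ± 0.17, adjusted p = 0.0104).

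Plin3, which moves between cytosol and droplets, had 56.2, 58.8, 61.7 and 68.7 FPKM untreated and 96.9, 84.3, 92.7 and 84.1 treated. It had the smallest standard error of the coats and rose 1.51-fold (log2 0.59 ± 0.10, adjusted p = 0.00124). Plin4, the neighbour of Plin5, was at 37.3, 33.0, 35.5 and 29.2 FPKM untreated and at 61.5, 42.5, 51.0 and 42.5 treated. Untreated replicate 4, high for Plin2 and Plin5, was the lowest of its group here. Plin4 rose 1.52-fold (log2 0.60 ± 0.13, adjusted p = 0.00635). In the annotation Plin4 overlaps the gene Hdgfl2, Plin2 overlaps Gm12551, Lipe overlaps 4732471J01Rik and Mgll overlaps Gm26588; no source used here gives the strandedness, and reads from such pairs cannot be told apart.

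Among the lipases, Pnpla2 was at 152, 159, 146 and 192 FPKM in untreated and 263, 256, 273 and 230.5 FPKM in treated floxed hearts. The groups were separated and the rise was 1.63-fold (log2 0.70 ± 0.13, adjusted p = 0.00209). Lipe showed the largest rise of the 10 genes, from 12.3, 11.4, 11.3 and 19.4 FPKM to 25.5, 28.7, 29.4 and 23.1. Again untreated replicate 4 stood nearest to the treated hearts. The rise was 2.02-fold (log2 1.01 ± 0.18, adjusted p = 0.00187). Mgll, the last step of the pathway, ranged from 39.1 to 61.7 FPKM untreated and from 43.5 to 58.4 treated. These ranges overlapped, and its log2 difference was 0.16 ± 0.17 (95% interval -0.19 to 0.51, adjusted p = 0.561).

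G0s2, the inhibitor of Pnpla2, was at 45.2, 50.4, 43.8 and 28.9 FPKM in untreated floxed hearts and at 20.2, 18.6, 12.1 and 24.5 in treated ones. It was the only one of the 10 genes that fell, and the groups did not overlap (log2 -1.10 ± 0.21, adjusted p = 0.00291). The activator Abhd5 kept within 11.1 to 13.6 FPKM untreated and 11.2 to 12.0 treated. Its log2 difference was -0.03 ± 0.08, with a 95% interval of -0.19 to 0.13, the narrowest of the 10 genes. Hilpda, an inhibitor best known from hypoxia, was at 4.25, 2.17, 2.81 and 4.78 FPKM untreated and 3.71, 3.97, 2.94 and 4.03 treated. The groups overlapped, and its log2 difference of 0.11 ± 0.22 had the widest 95% interval of the 10 genes (-0.36 to 0.58).

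In the same comparison, markers of other cells also moved. Of 10 macrophage markers 7 fell and 0 rose, and their summed level was 329 to 504 CPM untreated and 181 to 305 treated. Of 3 tested neutrophil markers S100a8 and S100a9 fell, with sums over 8 markers of 4.83 to 8.22 CPM and 2.57 to 4.80, and the defining neutrophil marker Ly6g had 0 or 1 count in every library. Macrophages and neutrophils can express Plin2 and G0s2, and the part of these cells in the result was not tested. Summed cardiomyocyte markers were 58603 to 66437 CPM untreated and 64413 to 74529 treated. The 2 of 12 that passed as higher were Myh6 (13291.5 to 18588.6 CPM untreated, 19543.4 to 26987.5 treated) and Ryr2. Of the 12 values 9 were positive, with a median log2 of 0.07. The sum of white adipocyte markers stayed at or under 0.726 CPM in both groups. The sum of 7 atrial markers was 174 to 471 CPM untreated and 65.9 to 92.9 treated, without overlap. Nearly all of it was Nppa, which fell (log2 -1.92 ± 0.44, edgeR adjusted p = 0.0122), whereas Myl7, Sln and Bmp10 had 0 to 10 counts per library. Dkk3 had 71 to 132 counts untreated and 25 to 70 treated, Myl4 25 to 57 and 21 to 35, and Mybphl 0 to 2 and 0 to 1. The part of atrial tissue in the result was not tested. Fewer cells of a type and less RNA per cell cannot be told apart in bulk samples.

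In Cre hearts treated with succinate, 8 of the 10 values had the same sign as in floxed hearts, but only Plin3 passed. By the same test 1 of 10 genes rose and 0 fell, against 0.917% of tested genes called (0.602% higher, 0.315% lower). The median log2 fold change of the 10 was 0.36, and that of all tested genes 0.0069. Plin3 went from 60.3, 69.7, 64.9 and 67.2 FPKM to 91.5, 90.2, 83.1 and 98.6. The groups did not overlap, and it rose 1.42-fold (log2 0.51 ± 0.10, n = 4 per group, edgeR adjusted p = 0.0238). This call was lost in some fits that left out 1 library. Without replicate 1 of the untreated Cre hearts 0 of 10 genes passed, and likewise without treated replicates 1, 2 or 4. In these fits 0.19%, 0.19%, 0.42% and 0.149% of tested genes were called, fewer than with all libraries. Without treated replicate 3 the share was 0.332%, and Plin3 passed. The log2 difference of Plin3 ranged from 0.43 to 0.56 over the 20 alternatives run. A fit on these 2 groups alone called 0, and DESeq2 called Plin3 and Plin5.

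Plin5 was at 49.5, 53.4, 80.7 and 51.0 FPKM in untreated and at 82.7, 91.03, 77.7 and 89.5 FPKM in treated Cre hearts. Untreated replicate 3 reached the treated range, and the difference did not pass (log2 0.58 ± 0.16, adjusted p = 0.0985). Plin2 followed the same arrangement, with 21.7, 23.7, 34.1 and 22.1 FPKM untreated and 30.6, 39.6, 34.7 and 35.8 treated (log2 0.50 ± 0.16, adjusted p = 0.151). Without replicate 3 of the untreated Cre hearts Plin2 and Plin5 passed as well (3 of 10 genes). Plin4 was at 24.9 to 34.4 FPKM untreated and 30.9 to 41.6 treated (log2 0.35 ± 0.13, adjusted p = 0.211).

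Pnpla2 was at 122, 167, 177 and 147 FPKM in untreated and 205, 191, 183 and 197 FPKM in treated Cre hearts. These groups did not overlap, but the difference of 0.38 ± 0.13 on the log2 scale missed the threshold (adjusted p = 0.167). Plin3 and Pnpla2 were the 2 of 10 genes without overlap, against 7.48% of tested genes. Lipe went from 12.0, 17.2, 18.8 and 13.8 FPKM to 22.1, 22.9, 23.5 and 18.5 (log2 0.52 ± 0.18, adjusted p = 0.169), so the lowest treated heart was just under the highest untreated one. G0s2 was at 33.0, 19.9, 28.8 and 32.0 FPKM untreated and 20.0, 23.4, 17.2 and 17.9 treated (log2 -0.48 ± 0.20, adjusted p = 0.294). Abhd5, Mgll and Hilpda were at log2 0.03 ± 0.08, 0.09 ± 0.17 and -0.13 ± 0.22, and their groups overlapped. Beside these values, all 10 macrophage markers were negative and 0 passed (360 to 495 CPM untreated, 229 to 411 treated). Summed cardiomyocyte markers were 55929 to 62161 CPM untreated and 65064 to 73412 treated. All 12 were positive, with a median log2 of 0.17, and 1 passed as higher. This was Myh6 (13499.9 to 17388.6 CPM untreated, 19898.1 to 25088.7 treated). The part of these cells in the values of the 10 genes was not tested.

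**Figure D2:**
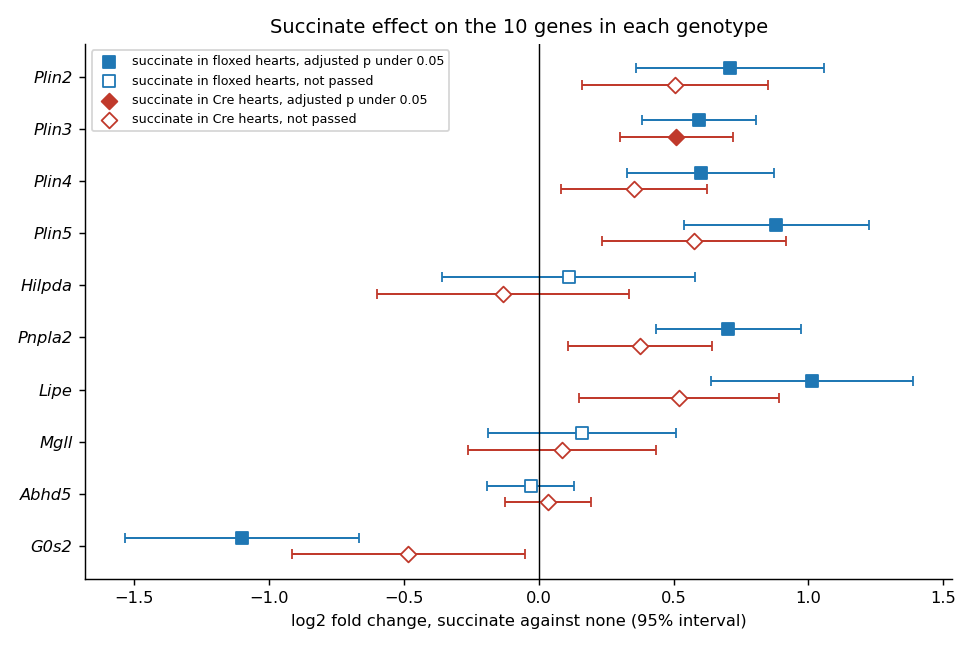
Log2 fold change of each gene with succinate (x axis) in floxed hearts (squares) and Cre hearts (diamonds), with 95% intervals from the edgeR fit; filled symbols passed an adjusted p of 0.05. The 7 filled squares are Plin2, Plin3, Plin4, Plin5, Pnpla2, Lipe and G0s2, and the single filled diamond is Plin3.

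Whether the succinate effect differed between genotypes was tested directly. The interaction called 0 of the 10 genes and 0 of the 14607 tested genes (0% of the background, 709 at an unadjusted p under 0.05, with 3 called by DESeq2, none of them among the 10, and 0 by limma voom). The effect in Cre hearts minus that in floxed hearts was -0.49 ± 0.25 for Lipe, -0.33 ± 0.18 for Pnpla2, -0.30 ± 0.23 for Plin5 and 0.62 ± 0.29 for G0s2 (log2, SE, adjusted p = 0.970 for each). Of the 10 interaction values, 8 were negative, and those of Abhd5 and G0s2 were positive. The 95% interval for Pnpla2 ran from -0.70 to 0.05 and that for G0s2 from 0.01 to 1.23, neither adjusted for the number of genes. An unequal effect of succinate in the 2 genotypes was therefore not shown for any of the 10 genes, and equal effects were not shown either. Averaged over the genotypes, which reuses the same 16 libraries, succinate raised 6 of 10 genes and lowered G0s2, against 19% of tested genes called (10.6% higher, 8.45% lower). The average log2 values were 0.73 ± 0.12 for Plin5, 0.77 ± 0.12 for Lipe, 0.55 ± 0.07 for Plin3 and -0.79 ± 0.15 for G0s2 (edgeR adjusted p = 4.5e-04, 5.9e-04, 6.6e-05 and 0.00149).

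The genotype itself changed none of the 10 genes past the threshold. Without succinate 0 of 10 passed, against 0.11% of tested genes (16 genes called, 0.089% higher and 0.0205% lower, and 1278 at an unadjusted p under 0.05). In 0 of 10 genes were the groups free of overlap, against 4.58% of tested genes. The largest differences, Cre against floxed, were -0.59 ± 0.20 for G0s2 and 0.51 ± 0.16 for Plin2 (log2, edgeR adjusted p = 0.403 and 0.366). With succinate 0 of 10 passed, against 0.691% (101 genes called, 0.548% higher and 0.144% lower, and 1617 at an unadjusted p under 0.05). Here Pnpla2 was at 183 to 205 FPKM in Cre hearts and 230.5 to 273 in floxed hearts, a log2 difference of -0.43 ± 0.13 (adjusted p = 0.149). Plin4 differed by -0.43 ± 0.13 (adjusted p = 0.158). Pnpla2, Plin4, Plin5 and Abhd5 did not overlap between these groups, 4 of 10 genes against 7.02% of tested genes. DESeq2, limma voom and a fit on these 2 groups alone each called Pnpla2 lower in treated Cre hearts. Of 7 atrial markers 3 were tested, and Nppa and Dkk3 were higher in treated Cre hearts. Their sum was 65.9 to 92.9 CPM in treated floxed and 450 to 943 CPM in treated Cre hearts, nearly all of it Nppa (63.4 to 90.2 and 443 to 932 CPM), a natriuretic peptide gene that ventricles under load also express. Counts per library in both groups were 0 to 10 for Myl7, 0 to 2 for Sln and 0 to 8 for Bmp10. Myl4 had 21 to 35 counts in treated floxed and 44 to 76 in treated Cre hearts, and Mybphl 0 to 1 and 2 to 7. Dkk3 had 25 to 70 and 127 to 305 counts. All 8 fibroblast and all 10 macrophage markers had higher values in treated Cre hearts, as did 3 of 12 cardiomyocyte markers (0 passed). Without succinate all 8 fibroblast markers and 6 of 10 macrophage markers were higher in Cre hearts too (0 passed). The part of these cells, or of atrial tissue, in the Pnpla2 and Plin4 values was not tested.

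The order of the 4 groups differed by gene. For Plin5, Plin4 and Pnpla2, treated floxed hearts stood above every treated Cre heart, and the 3 lower groups overlapped with their neighbours in the order. For Plin3 the order split between untreated and treated hearts, with no overlap there and no difference beyond the spread within either pair. The mean of Plin2 ran from untreated floxed (17.6 ± 3.54 FPKM, SD, n = 4) through untreated Cre (25.4 ± 5.86) and treated floxed (27.9 ± 3.97) to treated Cre hearts (35.2 ± 3.69), each neighbouring pair overlapping. G0s2 ran the other way, from treated floxed (18.8 ± 5.13 FPKM) and treated Cre (19.6 ± 2.81) to untreated Cre (28.4 ± 5.97) and untreated floxed hearts (42.1 ± 9.21), again with overlap between neighbours. For Abhd5, Mgll and Hilpda all neighbouring groups overlapped and differed by less than 1 SD.

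The balance of the lipase and its partners was then read as ratios of FPKM within each library, described without a test. In untreated floxed hearts G0s2 stood at 29.7%, 31.7%, 29.9% and 15.1% of Pnpla2. In treated floxed hearts it stood at 7.67%, 7.29%, 4.43% and 10.6%. The groups did not overlap, and the ratio was 3.57-fold lower on the log2 mean. This ratio combines the fall of G0s2 and the rise of Pnpla2 given above. In Cre hearts it was 27.0%, 11.9%, 16.3% and 21.8% untreated and 9.76%, 12.3%, 9.37% and 9.09% treated, 1.83-fold lower, and treated replicate 2 lay just above untreated replicate 2. Abhd5 stood at 5.80% to 9.04% of Pnpla2 in untreated and 4.31% to 4.85% in treated floxed hearts. Relative to the lipase the activator was 1.67-fold lower. This mostly restates the rise of Pnpla2 (log2 0.70 ± 0.13), as Abhd5 itself was at -0.03 ± 0.08. In Cre hearts the ranges of this ratio, 6.40% to 11.6% and 6.30% to 7.12%, overlapped. Lipe stood at 7.20% to 12.8% of Pnpla2 over all 16 libraries, and Plin5 at 30.9% to 47.6%, both with overlapping groups in each genotype. The log2 difference of Lipe to Pnpla2 was 0.34 in floxed and 0.15 in Cre hearts. This ratio was 8.08%, 7.20%, 7.72% and 10.1% in untreated floxed hearts and 9.70% to 11.2% in treated ones. Only untreated replicate 4 reached the treated range. The ratios of Hilpda to Pnpla2 (log2 difference -0.54 in floxed and -0.52 in Cre hearts) and of Plin4 to Plin5 (-0.31 and -0.25) also overlapped. Of the 7 ratios computed, that of the inhibitor to its lipase moved most with succinate in either genotype. Among treated hearts the ratio of Abhd5 to Pnpla2 did not overlap between the genotypes (4.31% to 4.85% in floxed and 6.30% to 7.12% in Cre hearts). Most of this gap lay in Pnpla2 (log2 -0.43 ± 0.13, Cre against floxed), with Abhd5 at 0.08 ± 0.08. Over both treatments, the 1 ratio of the 7 without overlap between the genotypes was picked out after its values were seen: Plin5 stood at 283% to 452% of Plin2 in the 8 floxed libraries (median 334%) and at 224% to 270.1% in the 8 Cre libraries (median 230.1%), with no overlap.

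**Figure D3:**
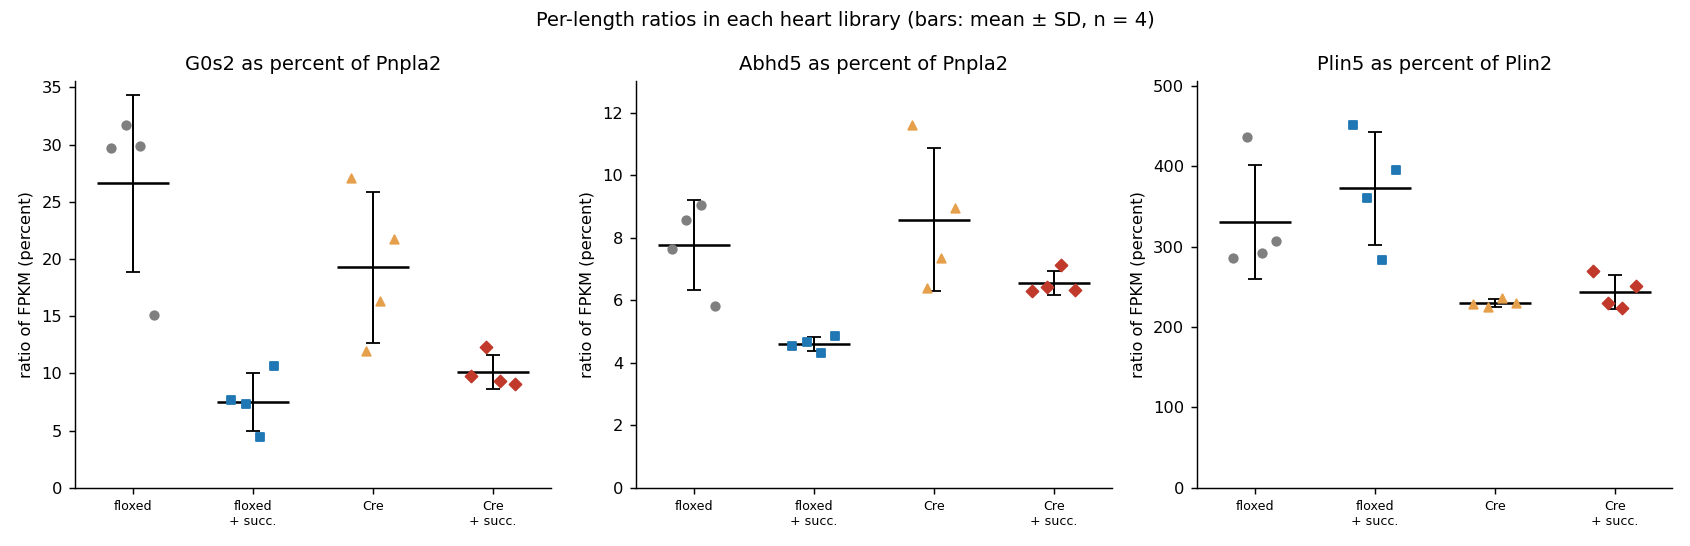
Ratio of FPKM within each library, in percent (y axis, from 0), for G0s2 against Pnpla2, Abhd5 against Pnpla2 and Plin5 against Plin2, by group (x axis); points are libraries, bars are means and whiskers the SD of 4 libraries. G0s2 lies at 15.1% to 31.7% of Pnpla2 in untreated floxed hearts and at 4.43% to 10.6% in treated ones.

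Other genes of lipid droplets and lipolysis were taken from 2 lists. Over all tested genes, succinate called 13.1% in floxed hearts (7.48% higher and 5.64% lower). The share was 0.917% in Cre hearts and 19% averaged over the genotypes. The calls in the lists were not tested against these shares. Of 19 other droplet proteins 16 were tested; in floxed hearts 2 rose, 1 fell and 13 did not pass (median log2 0.06). Hsd17b11, a dehydrogenase that sits on droplets, rose by 0.92 ± 0.21 (edgeR adjusted p = 0.0111) and Spart, which takes part in droplet turnover, by 0.29 ± 0.09 (adjusted p = 0.0402). Lpcat1, an enzyme of phospholipid remodelling, changed by -0.41 ± 0.10 (adjusted p = 0.0144). The droplet-forming genes Bscl2 (seipin) and Fitm2 were at 0.05 ± 0.09 and 0.32 ± 0.17, and Cidea, a droplet fusion protein with 35.2 FPKM in these hearts, at 0.02 ± 0.11, none past the threshold. Of 22 other lipases and cofactors 16 were tested; 2 rose, 0 fell and 14 did not pass (median 0.15). They were Pnpla7, a lysophospholipase related to Pnpla2 (1.08 ± 0.12, adjusted p = 3.4e-05), and the carboxylesterase Ces1d (0.67 ± 0.20, adjusted p = 0.0349), which has close paralogs. Lpl, the lipase that frees fatty acids from blood lipoproteins, had 930 FPKM and a log2 difference of 0.25 ± 0.09 (adjusted p = 0.0808). In Cre hearts 0 of 16 genes passed in either list, by edgeR. Averaged over the genotypes, 3 droplet proteins rose and 1 fell, adding Fitm1 (0.33 ± 0.10, adjusted p = 0.0316), and 4 lipases and cofactors rose and 2 fell, among them Lpl (0.20 ± 0.06, adjusted p = 0.0341) and Daglb (-0.27 ± 0.07, adjusted p = 0.0116).

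Genes whose log2 CPM followed the 10 most closely over the 16 libraries were named from 11217 candidates by Pearson's r, as a description; the libraries share their groups, so r after removal of the group means is given too. Plin5 was followed most closely by Acot1, an acyl-CoA thioesterase with close paralogs (r = 0.982, and 0.957 within groups), and Cpt2, the inner carnitine palmitoyltransferase (0.965 and 0.855). Plin2 was followed by Hsd17b11 (0.929 and 0.860) and by Angptl4, a secreted inhibitor of Lpl (0.922 and 0.822). Pnpla2 was followed by the mitochondrial carrier gene Slc25a34 (0.972 and 0.890) and Lipe by the peroxisomal membrane gene Pxmp4 (0.965 and 0.866). For G0s2 the closest were Wsb2 (0.882 and 0.642) and Myh7, the slow myosin heavy chain (0.876 and 0.684). Mgll, whose groups all overlapped, was followed by Pde2a (0.883 and 0.880) and Adgrl4, an endothelial receptor (0.858 and 0.872), so its variation lay mainly within groups. Plin3 was followed by Mospd1 (0.949 and 0.748) and Plin4 by Furin (0.919 and 0.806). For Abhd5 the closest was Phf24 (0.779 and 0.782), and for Hilpda Tent2 (0.775 and 0.876). Next for Plin5 came Chrna2 (0.9625 and 0.863), and next for Plin2 came Rom1 (0.9165 and 0.757).

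Both untreated groups held a library that stood nearest to the treated ones in several of these genes. Angptl4 was at 25.5 FPKM in replicate 4 of the untreated floxed hearts, against 3.18 to 5.05 in the other 3, and at 87.4 FPKM in replicate 3 of the untreated Cre hearts, against 7.16 to 32.5 in the other 3. Acot1 was at 22.2 FPKM and 32.1 FPKM in the same libraries, the first still below the 43.1 to 58.0 FPKM of treated floxed hearts. In these libraries Lipe and Plin2 were highest among the untreated floxed hearts, and Plin2 and Plin5 among the untreated Cre hearts. Replicate 3 of the untreated Cre hearts also had the highest white adipocyte sum (3.04 CPM, others of its group 0.0329 to 0.190). Treated Cre replicate 3 was at 2.97 CPM and was lowest of its group for Plin5 (77.7 FPKM). Untreated floxed replicate 4 was at 0.682 CPM, below replicate 3 of its group (0.726). The part of adipocytes in these levels was not tested.

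**Figure D4:**
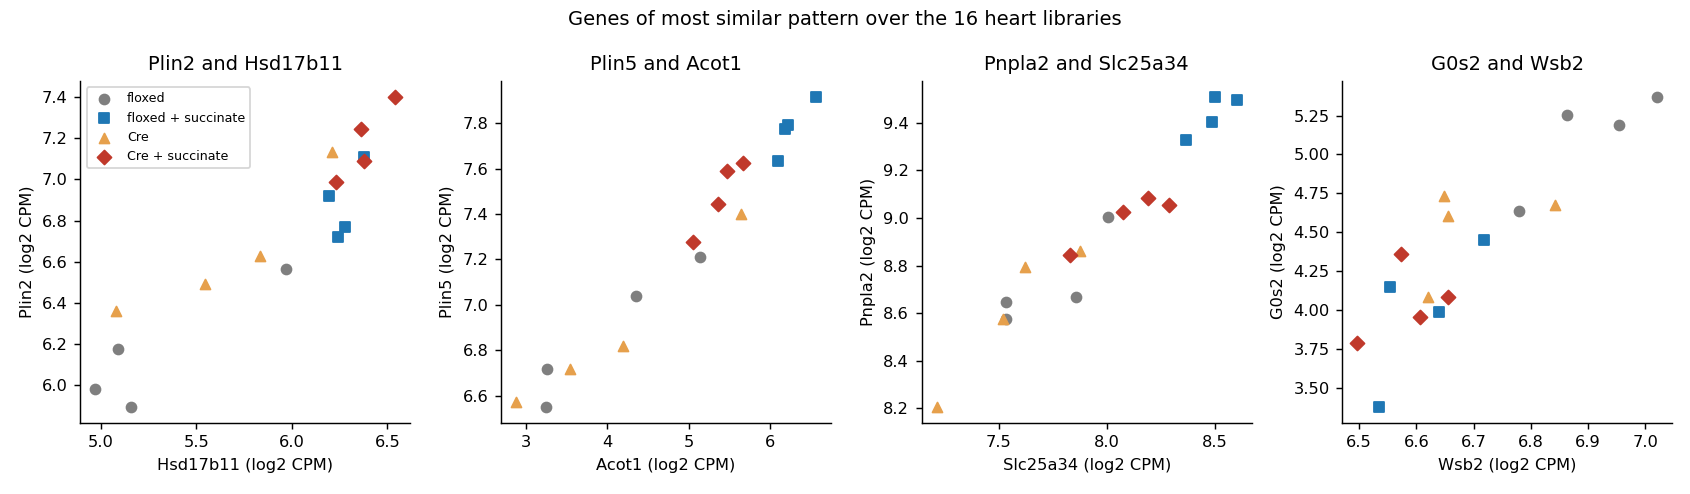
Log2 CPM of Plin2, Plin5, Pnpla2 and G0s2 (y axes) against that of the gene with the most similar pattern (x axes: Hsd17b11, Acot1, Slc25a34 and Wsb2) in the 16 libraries, with symbols for the 4 groups. The Plin5 points follow Acot1 across all groups (r = 0.982), with 1 untreated Cre library within the range of treated Cre hearts on both axes; axes do not start at 0.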

How the data were processed

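Gene counts and FPKM of 16 libraries were used as deposited. The submitters' processing notes name fastp, HISAT2, HTSeq, R 3.2.0, DESeq2 and GRCm39, with no roles; no source used here gives strandedness. The deposited FPKM equal the deposited counts over the library total and 1 length per gene. Counts were tested with edgeR 4.0.16 (R 4.3.3; quasi-likelihood, robust, TMM, 1 fit over 4 groups), after filterByExpr with a minimum count of 10, and Benjamini-Hochberg adjusted p-values at 0.05 over 14607 genes. Alternatives used DESeq2 1.42.0, limma 3.58.1 (voom, or log2(FPKM + 1)), other filters and scalings, a replicate block, an adipocyte covariate and leaving out each library. Libraries of a group correlated at 0.978 to 0.988, and all pairs differed beyond sampling noise. The model fit was tested on simulated data. All 10 genes are described; similar genes are the 3 of highest r for each gene (prior count 2, mean log2 CPM of at least 1). The genes and lists were chosen with earlier results of these data known. Intervals are at 95%.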

Additional observations from a re-analysis of the deposited data

Results flagged for a closer look

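Dixon's 95% critical value was used on 68 sets of 4 libraries (40 gene levels and 28 ratios, by group). In 6 sets, 1 library stood apart from the other 3 by more than this value. Chance flags about 1 independent set in 20. The ratios reuse the gene levels and several genes vary together, so the 6 sets cannot be compared with that rate. In untreated Cre hearts, replicate 3 was highest for Plin2 (34.1 FPKM, others 21.7 to 23.7) and for Plin5 (80.7 FPKM, others 49.5 to 53.4). In untreated floxed hearts, replicate 4 was highest for Lipe (19.4 FPKM, others 11.3 to 12.3) and had the lowest ratio of G0s2 to Pnpla2 (15.1%, others 29.7% to 31.7%). Replicate 2 of the same group had a ratio of Plin5 to Plin2 of 436%, against 286% to 307% in the others. In treated Cre hearts, replicate 3 had a ratio of Abhd5 to Pnpla2 of 7.12%, against 6.30% to 6.42%.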

How the results depend on the processing

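With succinate in floxed hearts 7 of 10 genes passed in all 20 alternatives run, and averaged over the genotypes 7 passed in all 27; Cre against floxed without succinate (20 alternatives) and the interaction (27) gave 0 throughout. In Cre hearts the count of 1 became 2 with DESeq2 and 0 in a fit on the groups compared alone, and ranged from 0 to 3 over the fits that left out 1 library. Cre against floxed with succinate gave 1 (Pnpla2) in place of 0 with DESeq2, with limma voom and with the compared groups alone. A replicate block gave 7, 1, 7, 0, 0 and 0 calls in the 6 comparisons, as without it; 3 of 24 correlations between same-numbered libraries passed 0.1 and 5 of 16 libraries correlated best with their own number, so the numbers were not read as pairs.

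Of 670 values of single genes under alternatives, 34 changed sign, all of genes that passed in no fit. These values are from the succinate comparisons (floxed, Cre and averaged). The genotype comparisons and the interaction were not counted in them. Abhd5 over both genotypes was at -0.0095 (DESeq2), -0.0093 (RLE), -0.0022 (no filter), -0.0081 (stricter filter), -0.036, -0.038 and -0.036 (limma on FPKM) and -0.0093 (mitochondrial genes removed), and at -0.030 to 0.012 without single libraries. Abhd5 in Cre hearts was at -0.00048, -2.6e-05 and -0.00048 on FPKM and at -0.028 to 0.055 without single libraries. Mgll in Cre hearts was at -0.030 with the adipocyte covariate and at -0.036 to 0.19 without single libraries. Hilpda over both genotypes was at 0.034 with voom and at -0.12 to 0.088 without single libraries, and in floxed hearts at -0.089 to 0.31. The cause was not tested. Of the genes called over the whole table in floxed hearts, 1093 rose and 824 fell; with limma on genes averaging 1 FPKM or more, 43.3% of calls were higher. Counts limit Hilpda most (76 to 158 per library).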
